A study of Homo sapiens with 16 samples.

Results

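The 9 genes described here encode myeloid transcription factors, all but NFE2 known for parts in granulocyte and monocyte fate: SPI1, CEBPA, CEBPB, CEBPD, CEBPE, IRF8, GFI1, KLF4 and NFE2. They were taken by symbol from the 23230 gene symbols counted in every library, and all 9 symbols were found in all 16 libraries. RNA had been sequenced from 8 established human blood cell lines, each exposed to the Y518R peptide, which binds DPY30, or to the 3R peptide, which does not and served as the control. DPY30 is a core component of the SET1 and MLL enzyme complexes that methylate histone H3. MOLM13 and THP1 are labelled MLL-AF9 leukemia, RS4-11 MLL-AF4 leukemia and KOPN8 MLL-ENL leukemia, and these are the 4 MLL-fusion lines. The 4 other lines are K562, labelled BCR-ABL leukemia, RAJI, a Burkitt's lymphoma line, JURKAT, labelled a Myc dependent T cell leukemia, and P493-6, labelled a model of Burkitt's lymphoma. All lines were grown in Advanced RPMI with 2.5% FBS, and neither the dose of the peptides nor how long they were given is stated in the sources used here. Each line stands for itself alone, with 1 library per peptide, so lines were the replicates.

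Blood stem cells commit to the granulocyte and monocyte lineages under a small group of DNA-binding proteins. PU.1, the ETS family product of SPI1, and C/EBP alpha, the leucine zipper product of CEBPA, open the myeloid programme together. IRF8 and KLF4 then favour monocytes, GFI1 (a repressor) and C/EBP epsilon favour granulocytes, C/EBP beta and C/EBP delta act in activated and emergency myelopoiesis, and NFE2 serves megakaryocytes and red cell precursors. PU.1 and IRF8 also work in B cells, and GFI1 in T cells.

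Depth ran from 19354300 to 43003124 gene counts per library. A count of 0 allows up to 3 counts, or 0.0695 to 0.159 CPM (library-scaled counts, with TMM factors), counting error only. Reads assigned to no gene made up 44.7% in RAJI 3R against 17.7% to 26.9% in the 15 other libraries. Cell type markers were read beside the labels, which for most lines name a fusion and not a cell type. Of 28 monocyte and macrophage genes, 18 to 25 reached 10 CPM in the MOLM13 and THP1 libraries. So did 8 or 9 of 10 B cell markers in RS4-11, KOPN8, RAJI and P493-6. All 10 T cell markers did in JURKAT and 10 or 11 of 12 erythroid and megakaryocyte markers in K562. No B cell or T cell marker reached 10 CPM in MOLM13 or THP1. The lists were not exclusive, as 10 and 11 monocyte and macrophage genes reached it in the P493-6 libraries and 8 and 10 in those of RS4-11. In KOPN8, 3 T cell markers did, and in JURKAT 2 B cell markers.

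The promoters of 3 members are shown because KLF4 and CEBPA had the widest gap in level between the MLL-AF9 lines and the rest, and CEBPE the widest peptide ratio. Each is the 250 bases before the RefSeq start (GRCh38.p14), read 5′ to 3′ on the gene's strand, all 3 on the minus strand. Capitals mark GAGGAA, a core of the kind PU.1 binds, searched on both strands.
KLF4, chr9:107489770-107490019: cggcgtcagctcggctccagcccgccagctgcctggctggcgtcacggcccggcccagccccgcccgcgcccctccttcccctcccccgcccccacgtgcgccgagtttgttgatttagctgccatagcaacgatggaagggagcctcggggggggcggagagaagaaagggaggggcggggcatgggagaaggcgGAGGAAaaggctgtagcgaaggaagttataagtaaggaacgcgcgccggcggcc
CEBPA, chr19:33302535-33302784: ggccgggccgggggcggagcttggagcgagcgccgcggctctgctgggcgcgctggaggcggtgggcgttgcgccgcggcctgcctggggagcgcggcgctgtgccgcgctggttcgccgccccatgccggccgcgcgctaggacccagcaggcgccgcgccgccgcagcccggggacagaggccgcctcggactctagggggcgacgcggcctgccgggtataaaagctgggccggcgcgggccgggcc
CEBPE, chr14:23119256-23119505: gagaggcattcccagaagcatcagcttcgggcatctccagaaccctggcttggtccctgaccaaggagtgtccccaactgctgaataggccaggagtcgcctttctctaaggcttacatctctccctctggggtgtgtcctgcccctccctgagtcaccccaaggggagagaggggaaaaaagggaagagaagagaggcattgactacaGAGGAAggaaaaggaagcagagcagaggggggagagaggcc
The match lies 54 bases before the start in KLF4 and 41 bases before it in CEBPE, and these letters are not in the CEBPA window. Of 35116 RefSeq promoters of the same length, 23.57% hold GAGGAA. TTGCNNAA, a C/EBP type of site, is in 9.05% of those promoters and in none of the 3 windows shown. RefSeq entries were found for 6 of the 9 genes, the other 3 being SPI1, CEBPD and NFE2. A match describes letters only.

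Levels differed widely between lines, with SPI1, CEBPB and IRF8 present in most and CEBPA, CEBPD and KLF4 high in MOLM13 and THP1. SPI1, the gene of PU.1, was at 202 CPM with 3R and 217 CPM with Y518R in MOLM13 and at 347 and 272 CPM in THP1. It was at 83.9 and 84.4 CPM in RS4-11, 75.8 and 79.6 CPM in KOPN8, 58.1 and 67.6 CPM in RAJI, 89.3 and 92.3 CPM in P493-6, and 25.1 and 26.1 CPM in K562. Only JURKAT, the T cell line, was near the floor, at 8 counts with 3R and 2 counts with Y518R. In these bulk libraries, fewer cells with a transcript and less transcript per cell cannot be told apart. The order of the lines was THP1, MOLM13, P493-6, RS4-11, KOPN8, RAJI, K562 and JURKAT, and the ranges of no neighbours in it overlapped.

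CEBPA, the gene of C/EBP alpha, was narrower. It stood at 789 and 1002 CPM with 3R and Y518R in MOLM13 and at 566 and 587 CPM in THP1. The next line, RS4-11, was at 25.3 and 23.9 CPM, followed by JURKAT at 6.61 and 4.53 CPM and P493-6 at 3.78 and 3.32 CPM. KOPN8, K562 and RAJI had 3 to 16 counts per library. Both libraries of each MLL-AF9 line were thus above every library of the 6 other lines.

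The other C/EBP genes differed among themselves. CEBPB, whose product acts in macrophages and in acute inflammation, was the one member above 10 CPM in every library. Its levels with 3R and Y518R were 168 and 142 CPM in MOLM13, 111 and 91.0 CPM in P493-6, 61.9 and 79.7 CPM in K562, 67.7 and 44.4 CPM in THP1 and 40.2 and 47.8 CPM in RS4-11. They were 17.6 and 15.7 CPM in JURKAT, 15.6 and 17.0 CPM in RAJI and 12.5 and 13.7 CPM in KOPN8. The peptide libraries of K562 and THP1, of THP1 and RS4-11, and of JURKAT and RAJI overlapped, so those neighbours in the order did not differ beyond the spread of their libraries.

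CEBPD, the gene of C/EBP delta, was at 47.1 and 57.1 CPM in MOLM13 and 102 and 60.5 CPM in THP1. K562 had 2.33 and 3.36 CPM, and P493-6 had 19 and 18 counts. The 4 remaining lines had 0 to 6 counts per library. CEBPE, the gene of the late granulocyte factor C/EBP epsilon, was low everywhere and highest in THP1, at 8.91 and 10.4 CPM. RS4-11 had 5.86 and 4.83 CPM, JURKAT 5.49 and 4.34 CPM and MOLM13 2.33 and 2.29 CPM, with RS4-11 and JURKAT overlapping. RAJI had 0 CEBPE counts in both libraries.

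IRF8, which drives monocytes and is also a B cell factor, was high in both kinds of line. It was at 538 and 538 CPM in THP1, 328 and 504 CPM in MOLM13, 370 and 350 CPM in P493-6 and 264 and 249 CPM in RAJI. The precursor B cell lines KOPN8 (50.4 and 55.7 CPM) and RS4-11 (23.3 and 25.8 CPM) were lower, JURKAT was at 5.34 and 4.60 CPM, and K562 had 6 and 14 counts. The MOLM13 libraries lay on either side of both P493-6 libraries, so these lines overlapped.

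GFI1, the repressor, was at 336 and 249 CPM in THP1 and 164 and 173 CPM in MOLM13. JURKAT (46.3 and 45.6 CPM) and RS4-11 (42.9 and 46.0 CPM) overlapped at a lower level, and the 4 remaining lines were below 5 CPM. KLF4, a zinc finger factor of monocytes, was confined at 10 CPM or more to the MLL-AF9 lines, at 38.7 and 30.7 CPM in MOLM13 and 32.3 and 39.8 CPM in THP1, which overlapped. RS4-11 followed with 36 and 16 counts, and the 5 remaining lines had 1 to 8 counts per library.

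NFE2 had another order. This subunit of the erythroid factor NF-E2 was highest in K562, at 330 and 364 CPM, then in MOLM13 at 117 and 114 CPM, THP1 at 37.0 and 40.0 CPM and RS4-11 at 16 and 8.97 CPM. KOPN8, RAJI, JURKAT and P493-6 had 2 to 20 counts per library. The plot of levels by line shows the broad genes (SPI1, CEBPB, IRF8) beside the narrow ones.

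**Figure D1:**
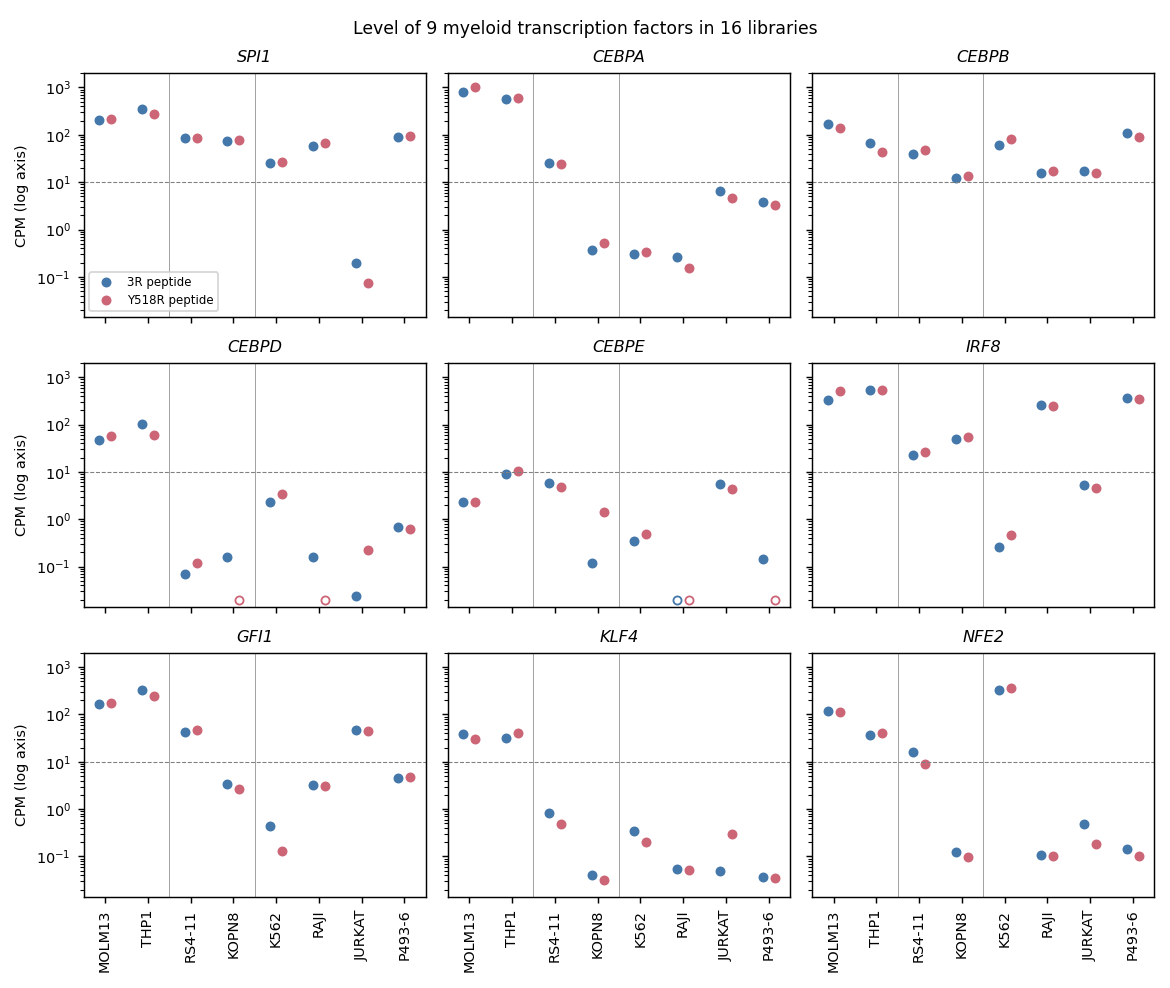
Level of each of the 9 genes in CPM on a log axis in the 16 libraries, by cell line on the horizontal axis, with the 3R peptide in blue and Y518R in red; open points at the bottom are libraries with 0 counts, the dashed line marks 10 CPM, and grey vertical lines separate MLL-AF9, other MLL-fusion and other lines. CEBPB is above 10 CPM in all 16 libraries, and KLF4 and CEBPD reach 10 CPM in the MOLM13 and THP1 libraries alone.

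Scaled by exon length, the members can be set against each other within a line. In MOLM13, the mean of both libraries in CPM per kilobase was 340 for CEBPA, 101 for SPI1, 99.1 for IRF8 and 79.3 for CEBPB. Lower there were GFI1 (55.0), NFE2 (49.3), CEBPD (23.9), KLF4 (11.8) and CEBPE (1.49). In THP1, the mean was 219 for CEBPA, 150 for SPI1, 128 for IRF8 and 95.3 for GFI1. Lower in THP1 were CEBPD (37.4), CEBPB (28.6), NFE2 (16.4), KLF4 (12.3) and CEBPE (6.20). CEBPA was the leading member per length in both MLL-AF9 lines. The leading member was SPI1 in RS4-11 (40.7) and KOPN8 (37.6), IRF8 in RAJI (61.2) and P493-6 (85.8), NFE2 in K562 (148) and GFI1 in JURKAT (15.0), all in CPM per kilobase.

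Levels were compared between classes of line with the counts of both libraries of a line summed. MOLM13 and THP1 were also the lines with the most monocyte and macrophage genes at 10 CPM. The MLL-AF9 fusion and a monocytic lineage thus cannot be told apart in these levels. In MOLM13 and THP1 against the 6 other lines, 1 of the 9 members, KLF4, was called higher by edgeR's quasi-likelihood test, where 0.684% of the 15945 genes tested were called higher. KLF4 line means were 34.7 and 36.1 CPM in the MLL-AF9 lines against a highest mean of 0.660 CPM among the other 6, a log2 difference of 7.35 ± 1.19 (SE; edgeR adjusted p = 0.0396; n = 2 lines against 6). The call was lost with 3R libraries alone (7.19, edgeR adjusted p = 0.0597). It was also lost when any 1 of MOLM13, THP1, KOPN8, K562, RAJI, JURKAT and P493-6 was left out, with differences of 7.14 to 7.44 and edgeR adjusted p of 0.0607 to 0.187, and it held without RS4-11 (8.31, edgeR adjusted p = 0.0331). Over all alternatives, the KLF4 adjusted p ran from 2.99e-08 by DESeq2 to 0.376 by edgeR without RAJI and THP1.

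CEBPA and CEBPD had differences of like size that missed the threshold. CEBPA gave a log2 difference of 6.90 ± 1.60 (SE, edgeR adjusted p = 0.134) and CEBPD one of 6.61 ± 1.49 (SE, edgeR adjusted p = 0.124). CEBPD passed when K562, the line with the third highest level, was left out (8.31, edgeR adjusted p = 0.0228), and both passed by limma-voom. The adjusted p ran from 0.00438 to 0.569 for CEBPA and from 0.00305 to 0.613 for CEBPD over the alternatives that gave one. DESeq2 gave no adjusted p for either gene, with log2 differences of 6.93 for CEBPA and 6.62 for CEBPD.

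The remaining members had smaller differences. GFI1 gave 3.70 ± 1.41 (SE, edgeR adjusted p = 0.390), SPI1 2.12 ± 1.26, IRF8 1.97 ± 1.65, CEBPE 1.53 ± 1.85, CEBPB 1.21 ± 0.81 and NFE2 0.28 ± 2.81, the last 5 with edgeR adjusted p of 0.563 to 0.982. All 9 fitted differences were above 0, with a median of 2.12, where 44.6% of all genes were above 0 with a median of -0.12. NFE2 turned to -0.71 without MOLM13, and to 4.74 without K562, its highest line. CEBPE turned to -0.11 without RAJI and THP1 together and was 0.15 without THP1. CEBPB was 0.30 without MOLM13.

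Other genes of the myeloid programme can be read beside the factors, from lists chosen for this tissue with earlier results of these data known. Of all 15945 genes tested, 0.684% were called higher. Of the granule protein genes, 5 of 15 tested were higher in the MLL-AF9 lines, among them RNASE2, an eosinophil ribonuclease (log2 11.18, edgeR adjusted p = 0.000174), ELANE, neutrophil elastase (10.97, edgeR adjusted p = 0.000274), AZU1, azurocidin (10.62, edgeR adjusted p = 0.00109) and PRTN3, proteinase 3 (10.31, edgeR adjusted p = 0.00686). Of the monocyte and macrophage genes, 5 of 25 tested were higher, with S100A9 (10.64), S100A8 (10.14), CSF3R, the G-CSF receptor (10.06), and TLR2 (9.31) at the lowest p. The related and partner factors, such as other KLF, MAF, IRF and GATA genes, gave 0 of 34 by edgeR, with a median of -0.15 against -0.12 over all genes. None of 10 B cell, 9 T cell and 10 erythroid and megakaryocyte markers tested was called in either direction.

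With the 4 MLL-fusion lines set against the 4 other lines, 0 of the 9 members were called higher, where 0.0575% of 13909 genes were. CEBPA had a log2 difference of 7.19 ± 2.23 (SE, edgeR adjusted p = 0.376) and KLF4 one of 7.09 ± 2.05 (SE, edgeR adjusted p = 0.346). Both passed by DESeq2, at adjusted p of 0.000236 and 0.000168, and their adjusted p reached 0.76 and 0.749 under other alternatives. KOPN8, an MLL-fusion line, had 9 and 16 CEBPA counts and 1 and 1 KLF4 count, beside the high levels in MOLM13 and THP1. Across the 9 members, 8 fitted differences were above 0, all but that of NFE2, with a median of 1.91 against -0.01 over all genes.

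The peptides were compared within lines. Over all 8 lines, 0 of 9 members were called between Y518R and 3R by edgeR, where 0% of 13043 genes were called. None of the 9 had an unadjusted p under 0.05 by edgeR and none was called by DESeq2 or limma-voom. Over all genes, 394 had an unadjusted p under 0.05. The fitted log2 changes of the members lay between -0.16 ± 0.13 (SE) for NFE2 and 0.19 ± 0.36 (SE) for CEBPE. SPI1 was at 0.01 ± 0.07, with 6 of 8 lines above 0, CEBPA at -0.01 ± 0.10 and IRF8 at 0.10 ± 0.08. Single lines weighed on these values: IRF8 was 0.01 without MOLM13, NFE2 0.01 without RS4-11 and CEBPE -0.12 without KOPN8. The members' median was -0.06 against a median of 0.00 over all genes.

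In the 4 MLL-fusion lines, 0 of 9 members were called, where 0% of genes were, and IRF8 had the lowest p (log2 0.23 ± 0.10 SE, 3 of 4 lines above 0, unadjusted p under 0.05, edgeR adjusted p = 0.840). Without MOLM13 that value was 0.099. In the 4 other lines, 0 of 9 were called, again at 0% of genes. There, CEBPA gave -0.37 ± 0.15 on the log2 scale (SE, 1 of 4 lines above 0, unadjusted p under 0.05, edgeR adjusted p = 1), at 3 to 270 counts per library. The difference between the classes was 0.49 ± 0.18 for CEBPA (SE, unadjusted p under 0.05, edgeR adjusted p = 0.999), and 0 of 9 members differed between classes, at 0% of genes. Without JURKAT, these CEBPA values were -0.18 in the 4 other lines and 0.31 for the difference. Unadjusted p under 0.05 by edgeR were found for 762, 202 and 494 genes in these comparisons. DESeq2 called 1, 0 and 2 genes and limma-voom 20, 2 and 2.

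In MOLM13 and THP1 as a pair, 0 of 9 members were called, where 0.238% of genes (31 of 13043) were. The spread in this fit is shared with the 6 other lines. An unadjusted p under 0.05 by edgeR was found for 1401 of the 13043 genes. CEBPB had the lowest p among members, with a log2 change of -0.42 ± 0.15 (SE, below 0 in both lines, unadjusted p under 0.05, edgeR adjusted p = 0.306). IRF8 had 0.31 ± 0.14 (SE, unadjusted p under 0.05, edgeR adjusted p = 0.440), which joined 0.62 in MOLM13 with 0.00 in THP1. IRF8 was at 0.61 without THP1, where MOLM13 alone stands for the class, and at 0.01 without MOLM13. A single pair gives no spread of its own. With both lines in the fit, the adjusted p of IRF8 was 0.478 by DESeq2 and 0.259 by limma-voom. CEBPA was at 0.20 ± 0.12, above 0 in both lines, and at 0.067 without MOLM13 and 0.34 without THP1. CEBPB was at -0.25 without THP1. The 6 other members lay between -0.25 and 0.11.

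Set against the 6 other lines, the MLL-AF9 response differed for 0 of 9 members, where 0.0843% of genes (11 of 13043) differed. CEBPB had a difference of -0.49 ± 0.18 (SE, edgeR adjusted p = 0.453) and CEBPA one of 0.41 ± 0.16 (SE, edgeR adjusted p = 0.530). CEBPB was at -0.32 without THP1. It reached an edgeR adjusted p of 0.0910 without MOLM13, its lowest over the alternatives, which ran to 1, and CEBPA one of 0.0853 without RAJI and THP1, again running to 1. The plot of fitted changes sets the peptide changes, all within 1 log2 unit, beside the differences in level.

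**Figure D2:**
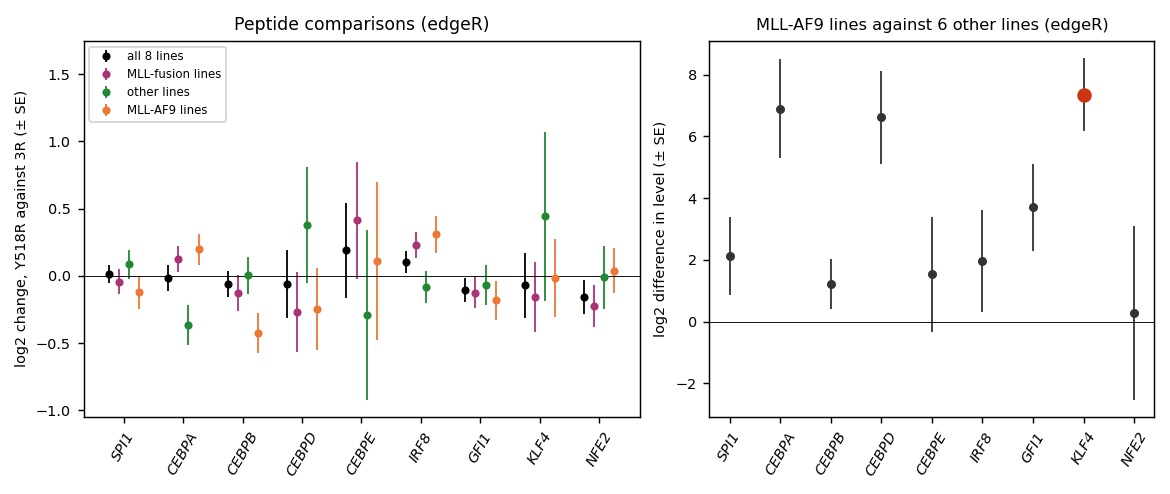
Fitted log2 values with SE from edgeR for the 9 genes on the horizontal axis; the left panel gives the change with Y518R against 3R over all 8 lines (black), the MLL-fusion lines (purple), the 4 other lines (green) and the MLL-AF9 lines (orange), and the right panel the level in MOLM13 and THP1 against the 6 other lines. KLF4, at 7.35 in the right panel and in red, is the 1 value past the threshold.

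Single lines were then described one by one. Within a single line there is 1 library per peptide and no test, and the intervals given are exact 95% intervals of a ratio of counts, for counting error only. No member at 10 CPM or more reached a 2-fold difference in any line, where 0.662% of genes at that level did in MOLM13, 2.96% in THP1, 0% in RS4-11, 0.0327% in KOPN8, 0.0222% in K562, 1.27% in RAJI, 0% in JURKAT and 0% in P493-6.

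In MOLM13, IRF8 had the widest ratio among the members. It had 7451 counts with 3R and 10121 with Y518R, a log2 ratio of 0.62 (0.58 to 0.66), the 310th highest of 9673 genes. CEBPA was at 0.34 (0.32 to 0.37), CEBPD at 0.28 (0.16 to 0.40) and SPI1 at 0.11 (0.05 to 0.17). KLF4 was lower with Y518R, at -0.33 (-0.49 to -0.18), as was CEBPB at -0.24 (-0.32 to -0.17). GFI1 at 0.08 and NFE2 at -0.03 were close to the median of all genes, 0.00, and GFI1 turned to -0.01 when scaled by library total. In all, 5 of the 8 members at 10 CPM were above 0.

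In THP1, CEBPD had the widest ratio, with 3181 counts with 3R and 1820 with Y518R, a log2 ratio of -0.76 (-0.84 to -0.68) and the 186th lowest of 9811 genes. CEBPB followed at -0.61 (-0.71 to -0.51), the 317th lowest. GFI1 was at -0.43 (-0.47 to -0.39) and SPI1 at -0.35 (-0.39 to -0.31). Both were inside the band that holds the middle 90% of genes, which ran from -0.51 to 0.61. KLF4 was higher with Y518R, at 0.30 (0.18 to 0.42), and CEBPE was at 0.22 (-0.02 to 0.46). CEBPA was at 0.05 and IRF8 at 0.00 on 16720 and 16181 counts.

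In the MLL-AF9 lines, 4 members had ratios of opposite sign with intervals that left out 0 in both: SPI1, CEBPD and KLF4 as given, and GFI1 at 0.08 (0.01 to 0.14) in MOLM13. In MOLM13, 2 of these values rest on the TMM scaling, since library totals gave 0.02 for SPI1 and -0.01 for GFI1. CEBPB was below 0 in both lines. Whether these ratios differ between the lines beyond the spread of repeated libraries was not tested, since each line had 1 library per peptide.

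The effector genes beside the factors also took different values in the MLL-AF9 lines. Of 9 granule genes at 10 CPM in THP1, 7 were below 0 with a median log2 ratio of -1.02, and 5 were at least 2-fold lower: CTSG, cathepsin G (3076 with 3R and 638 with Y518R, in CPM), PRTN3 (1411 and 437 CPM), MPO, RNASE2 and AZU1, where 0.805% of all genes at that level were. In MOLM13, 8 of 10 were above 0 with a median of 0.28, while MPO, myeloperoxidase, was at 24.9 and 9.81 CPM. MPO passed the 10 CPM cut through the 3R library alone in both lines. BPI, above 0 in MOLM13, passed it there through the Y518R library alone (9.28 and 11.9 CPM). In THP1, 6 of 25 monocyte and macrophage genes at 10 CPM were at least 2-fold higher with Y518R: VCAN, versican (27.4 and 349.7 CPM), CD163, CLEC7A, ITGAM, CD14 (4.41 and 17.8 CPM) and CYBB, where 2.15% of all genes were. At 10 CPM there were 22 of the list with 3R and 25 with Y518R. Some of the 25, CD14 among them, thus passed only through the library where they were high, which by itself favours wide ratios. MNDA was at least 2-fold lower in THP1, at 166 and 71.2 CPM. In MOLM13, 0 of 18 reached 2-fold in either direction. The medians of all genes were 0.00 in both lines. Over the MLL-AF9 lines together, edgeR called 0 of the 9 granule and 0 of the 15 monocyte and macrophage genes that passed the count filter. These are other sets than the genes at 10 CPM in THP1. The granule genes tested included EPX and PRG2, which were below 10 CPM there, but not MPO or RNASE2.

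Among the related and partner factors, 0 of 32 tested were called over the MLL-AF9 lines by edgeR. MAFG, a small MAF protein that pairs with NFE2, was at -0.45 ± 0.10 on the log2 scale (SE, edgeR adjusted p = 0.0827), and DDIT3, the stress-induced C/EBP relative CHOP, at -0.75 ± 0.17 (SE, edgeR adjusted p = 0.0882). CEBPG, another C/EBP relative, was at -0.35 ± 0.10 and KDM1A, a demethylase that GFI1 recruits, at 0.33 ± 0.10. The list's median was -0.10 against 0.00 over all genes, with 12 of 32 above 0.

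RS4-11 gave the widest ratio of any member at 10 CPM. NFE2 had 690 counts with 3R and 295 with Y518R there, or 16 and 8.97 CPM, a log2 ratio of -0.83 (-1.04 to -0.64). It was the lowest ratio of the 9346 genes at 10 CPM in that line, the next being GLIS2 at -0.67 and OCEL1 at -0.61, both named after their values were seen. Among the 12136 genes at 1 CPM or more, a level chosen after the data were seen, it was the 155th lowest. NFE2 passed the 10 CPM cut through the 3R library alone, so its rank at that level rests partly on the cut. In the other lines with NFE2 at 10 CPM the ratio was -0.03 in MOLM13, 0.11 in THP1 and 0.14 in K562, so among the lines at that level the clearly lower value was that of RS4-11. Below 10 CPM, NFE2 in JURKAT was at -1.13 on 20 and 5 counts, with an interval of -3.17 to 0.06. CEBPB was at 0.25 (0.15 to 0.35) in RS4-11, the 355th highest, and IRF8 was at 0.15, GFI1 at 0.10, SPI1 at 0.01 and CEBPA at -0.08.

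CEBPB spread across lines in both directions. It was the 307th highest of 9028 genes in K562, at 0.36 (0.27 to 0.46) on 1433 and 2396 counts, and the 305th lowest of 9300 in P493-6, at -0.29 (-0.37 to -0.22) on 3093 and 2631 counts. Its ratios were 0.13 (-0.08 to 0.35) in KOPN8, 0.12 (-0.11 to 0.35) in RAJI and -0.16 (-0.34 to 0.01) in JURKAT. CEBPB was thus above 0 in 4 lines and below 0 in the other 4, over all 8 lines at -0.06 ± 0.10 (SE, edgeR adjusted p = 0.999).

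**Figure D3:**
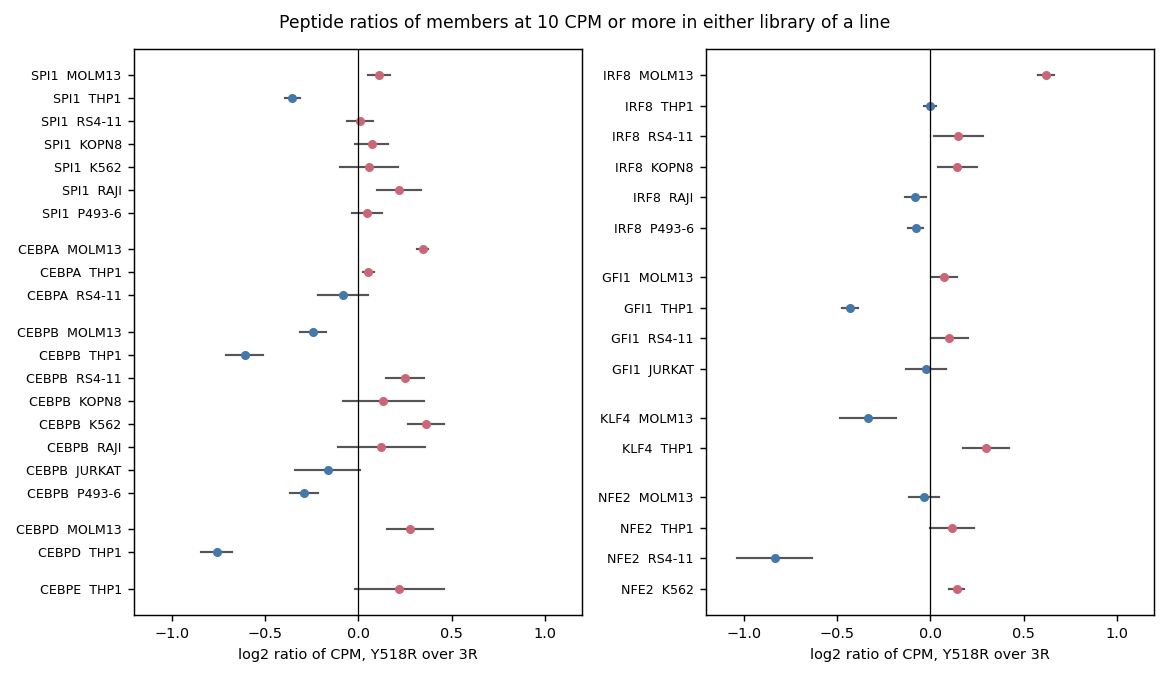
Log2 ratio of CPM with Y518R over 3R for each of the 9 genes in each line where it reached 10 CPM in either library, with the exact 95% counting interval as a bar; red points are above 0 and blue points below. NFE2 in RS4-11 (-0.83), CEBPD in THP1 (-0.76) and IRF8 in MOLM13 (0.62) lie farthest from 0.

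Members other than CEBPB at 10 CPM in KOPN8, RAJI, P493-6, JURKAT and K562 had log2 ratios between -0.08 and 0.22. In KOPN8, SPI1, CEBPB and IRF8 lay between 0.07 and 0.14. In RAJI, SPI1 was at 0.22 (0.10 to 0.34) and IRF8 at -0.08 (-0.14 to -0.02), the 3R library there being the one with the high share of reads assigned to no gene, whose part in these ratios was not tested. In P493-6, IRF8 was at -0.08 (-0.12 to -0.04) on 10276 and 10122 counts, and SPI1 at 0.05 (-0.03 to 0.13). In JURKAT, GFI1 was at -0.02 (-0.13 to 0.08). In K562, NFE2 was at 0.14 (0.10 to 0.18) and SPI1 at 0.06 (-0.10 to 0.21).

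**Figure D4:**
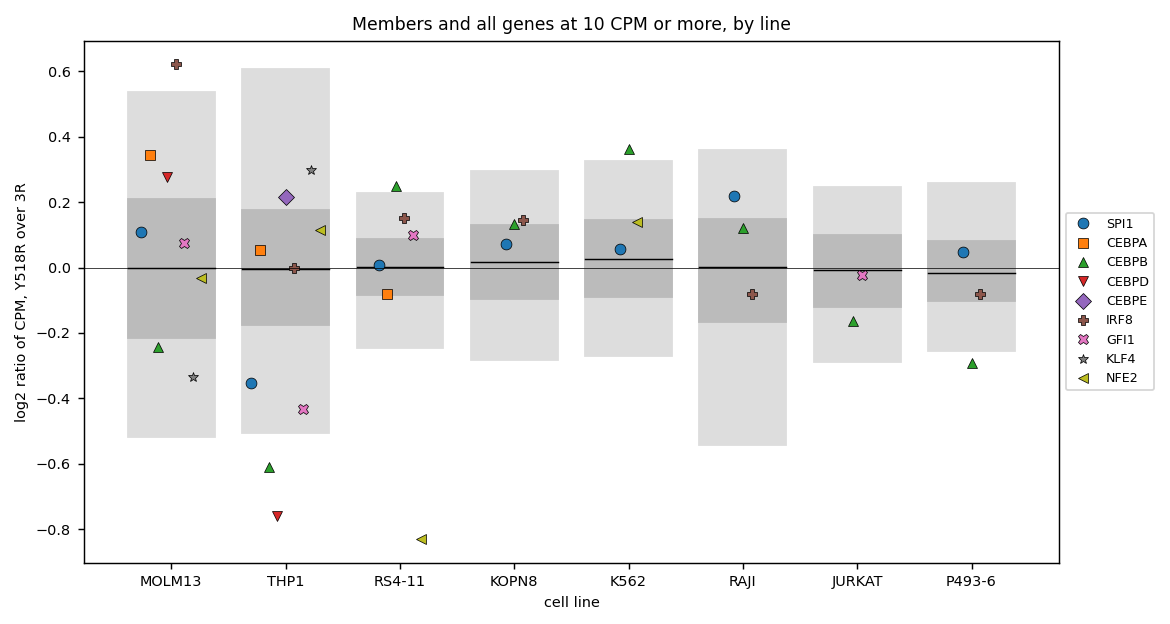
Log2 ratio of CPM with Y518R over 3R for members at 10 CPM or more (symbols) in each line on the horizontal axis, over all genes at that level (light band, 5th to 95th percentile; dark band, 25th to 75th percentile; black line, median). IRF8 in MOLM13, CEBPB and CEBPD in THP1, NFE2 and CEBPB in RS4-11, CEBPB in K562 and CEBPB in P493-6 fall outside the light band.

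Below 10 CPM, one member stood apart. CEBPE in KOPN8 had 3 counts with 3R and 44 with Y518R, or 0.122 and 1.42 CPM, an 11.6-fold ratio of CPM with a counting interval of 3.72 to 58.4. With a prior count of 2 the log2 ratio was 2.95, the highest of the 11662 genes at 1 CPM or more in either library of that line. CEBPE passed that cut through the Y518R library alone, which by itself favours a wide ratio, so the rank rests partly on the cut. The next were NRG3 (3 and 39 counts) and HMX2 (4 and 33 counts), named after their values were seen. In the lines with more CEBPE, the log2 ratios were 0.22 in THP1, -0.28 in RS4-11, -0.33 in JURKAT and -0.02 in MOLM13, and none of these 4 ratios was near that of KOPN8. CEBPA in JURKAT, at 270 and 122 counts, had a log2 ratio of -0.54 (-0.87 to -0.23).

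For each member at 10 CPM in some line, the genes most like it were sought by Pearson correlation of line means (log2 CPM) over the 8 lines, among 11278 genes, as a description. Every point joins both libraries of a line, and the lines differ in lineage, so many genes reach high values. The first for SPI1 was DOCK8 (r = 0.992), highest in THP1 and lowest in JURKAT, then SAMHD1 and PPP1R12C. For NFE2 it was MITF (r = 0.989), then TRIM58 and SH3BGRL2, all 3 highest in K562. CTSK (r = 0.981) and BARX1 (r = 0.975) were among those most like KLF4, and CEBPD had ARF1 (r = 0.980), SHOX2 and ZNF865, with THP1 the highest line for each of these genes. GFI1 had IL11RA (r = 0.980), BIN2 and ZNF438, CEBPA had PSMC1 (r = 0.971), ARTN and STK32C, IRF8 had ORMDL1 (r = 0.967), MVP and ERO1LB, and CEBPB had DHX32 (r = 0.967), MIA3 and SNAI1. This correlation takes no account of the size of a range. Line means ran from 0.211 to 896 CPM for CEBPA, from 12.1 to 22.1 CPM for PSMC1 and from 0.0531 to 21.6 CPM for ARTN. PPP1R12C, ZNF865, ORMDL1 and MIA3 were likewise present in every line, with lowest line means of 26.0 CPM or more. CEBPE did not reach 10 CPM as a line mean and was left out.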

How the data were processed

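The deposited values are raw counts of reads per gene symbol, 1 table per library, in 16 libraries made from polyadenylated RNA with a NEBNext Ultra kit, per the labels. Tools named in the submitters' processing notes are HTSeq 0.6.1, TopHat2 2.1.1, CASAVA 1.8.4, DESeq and DESeq2 3.0, with both GRCh38 and hg19 as builds and no word on which served these values, so the counted genes are given without coordinates. Whether counting used the strand is not stated in the labels, so reads of overlapping genes cannot be told apart. The 5 entries that name no gene stayed out of library sizes and tests.

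Peptides and lines come from the labels. Libraries of a line pair by cell line: all 16 had the other library of their line as the best match (Spearman 0.988 to 0.997 within lines, at most 0.883 between lines). The test was that of edgeR 4.0.16 under R 4.3.3 (quasi-likelihood, TMM, filterByExpr at a minimum count of 10, line as block for peptide terms, Benjamini-Hochberg over all genes tested, calls under 0.05), and all 9 members passed the filter. SE is the log2 change over the square root of F. Nothing says that libraries came from separate cultures, so p-values measure the spread between lines, part of which may be technical. Ratios within a line use TMM-scaled CPM and a prior count of 2. Exon lengths for CPM per kilobase are the union of GENCODE basic exons. Alternatives were RLE scaling, no filter, DESeq2 1.42.0, limma-voom (limma 3.58.1), no block, single peptides, each line left out, RAJI and THP1 left out together, a 1.5-fold threshold, a 1 CPM minimum, a prior count of 0.5 and library totals. The fitting scripts were tested on simulated data.

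Named are all 9 members, the 3 most similar genes per member (1 of them is not reported here), and for each list up to 4 genes with the lowest p in a comparison; list genes at least 2-fold apart within a line were named after their values were seen. The members and lists were chosen with earlier results of these data known. Intervals and floors cover counting error only, as reads carry no molecular identifiers.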

Additional observations from a re-analysis of the deposited data

Results flagged for a closer look

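Among 27 groups of lines, 7 had a log2 ratio of Y518R to 3R in 1 line far from the rest; by the nominal rate of the rule, chance flags about 1 in 20 groups. CEBPE in KOPN8 (2.946, 3 and 44 counts) stood apart over all 8 lines and again over the 4 MLL-fusion lines. GFI1 in K562 (-1.303, 10 and 4 counts) stood apart over all 8 lines and over the 4 other lines. Within the 4 other lines, SPI1 in JURKAT (-0.8786, 8 and 2 counts) was the lowest and IRF8 in K562 (0.7, 6 and 14 counts) the highest. KLF4 in JURKAT (1.617, 2 and 8 counts) was the highest over all 8 lines. All 7 rest on a library of 10 counts or fewer of that gene.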

How the results depend on the processing

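Counts of called genes moved with the method, and the 1 member call, KLF4 in level, was lost under 9 alternatives. In the order all 8 lines, MLL-fusion lines, other lines and their difference (0 each by edgeR), genes called were 3, 52, 1 and 9 without a filter and 1, 20, 2 and 2 by limma-voom; DESeq2 gave 1 for the MLL-fusion lines and 2 for the difference. For the MLL-AF9 lines (31) and their difference from the others (11), they were 282 and 172 without a filter, 159 and 72 by DESeq2, 203 and 72 by limma-voom, 0 and 0 with no replicate block, and 772 and 361 without RAJI and THP1. For the level of the MLL-AF9 lines (111) they were 1043 by DESeq2, 400 by limma-voom and 8 without RAJI and THP1; for that of the MLL-fusion lines (9), 604 by DESeq2, 1 by limma-voom, 4 with Y518R libraries only and 1 without RAJI and THP1. Leaving out 1 line gave 8 to 546 and 1 to 411 for the MLL-AF9 change and its difference, 18 to 163 and 3 to 10 for the levels, 0 to 3 for the MLL-fusion lines and 0 to 1 for the class difference; a lone MLL-AF9 line is assumed to vary like the others. The cause was not tested.

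Within lines, in the order MOLM13, THP1, RS4-11, KOPN8, K562, RAJI, JURKAT and P493-6, a 1.5-fold threshold gave 706, 856, 20, 68, 59, 438, 27 and 27 genes, and a minimum of 1 CPM gave 491, 858, 157, 214, 224, 604, 152 and 199, by construction more than at 2-fold and 10 CPM. Library totals gave 1 in K562 and 1 in JURKAT, and moved the median of all genes by less than 0.1 (to -0.09 in MOLM13).

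Signs that turned belong to fitted changes that no test called. Over all 8 lines, limma-voom gave 0.10 for CEBPA and 0.011 for KLF4. With no replicate block SPI1 was at -0.070, CEBPA at 0.22 and NFE2 at 0.075. Without RAJI and THP1, CEBPB was at 0.0023 and CEBPD at 0.32. Leaving out 1 line gave -0.021 to 0.075 for SPI1, -0.12 to 0.079 for CEBPA, -0.12 to 0.017 for CEBPB, -0.12 to 0.33 for CEBPE and -0.29 to 0.013 for NFE2. In the MLL-AF9 lines, limma-voom gave 0.023 for KLF4, and without RAJI and THP1 the values were 0.10 for SPI1, 0.27 for CEBPD, -0.029 for CEBPE, 0.071 for GFI1 and -0.037 for NFE2. Leaving out 1 line gave -0.34 to 0.10 for SPI1, -0.035 to 0.23 for CEBPE, -0.42 to 0.065 for GFI1 and -0.043 to 0.13 for NFE2. In level, CEBPE was at -0.11 without RAJI and THP1, and NFE2 ran from -0.71 to 4.74 when 1 line was left out. CEBPD and KLF4 failed the count filter in some of these fits, which then give no value. Members under 10 CPM are limited by counting error.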
